A study of Homo sapiens with 16 samples.

Results

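Axon guidance ligands and receptors were followed through neural crest induction of human embryonic stem cells edited at the FOXB1 gene and of their unedited counterparts. The set comprised 69 of the 23284 genes in the authors' deposited table, taken by symbol: the class 3 to class 7 semaphorins, the plexins, the neuropilins, the Eph receptors, the ephrins, the ROBO receptors, the SLIT ligands, the netrins, the UNC5 receptors and DCC. The symbol rule uses no expression value. All 16 samples were WA01 cells, an established embryonic stem cell line, plated at 20000 cells per cm2 on Matrigel with 3 µM CHIR99021, a GSK3 inhibitor that activates WNT signalling. Plating was done with Y-27632 at 10 µM, which inhibits ROCK. All 16 samples also had B27, a culture supplement, at 2%. The KO and Het lines had been edited with CRISPR/Cas9 and 1 guide RNA at the translational start of FOXB1, a forkhead transcription factor, and the wild-type cells were 2 isogenic lines, isoWT1 and isoWT2. Poly-adenylated RNA was sequenced at day 5, labelled neural crest, and at day 3, labelled pre-neural crest, with 2 replicates for each line and day. The question of the study was how removal of FOXB1 alters expression during this induction.

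Guidance cues steer migrating cells and growing axons by attraction or repulsion. Semaphorins signal through plexins, and most secreted class 3 semaphorins need a neuropilin as the binding partner. Ephrins are membrane-bound and act on Eph receptor tyrosine kinases of neighbouring cells, SLIT proteins repel cells through ROBO receptors, and netrins attract through DCC and repel through UNC5 receptors. In chick, mouse and frog embryos, ephrins and semaphorins keep streams of migrating neural crest cells apart.

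The deposited values are FPKM (fragments counted per length of transcript and per depth of library), 1 per gene and group for 6 groups: KO, Het and wild type at each day. For wild type the table gives 1 group at each day, while the labels list 4 such libraries per day, and it does not state which of them that group holds. No value per library was at hand, so depth is unknown, and the spread between replicates is known only from the standard error (SE) of the log2 change that the deposited test scores imply. Nothing says that replicates were separate inductions, so p-values measure the spread between these samples, which may be technical. Each edited genotype was 1 line, so genotype and line cannot be told apart, and KO and Het were set against the same wild-type group. Between 13099 and 13562 genes reached 1 FPKM in each group. A gene was called higher or lower where its q-value, the p-value adjusted over all 222234 tests of the authors' deposited table, was below 0.05.

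FOXB1 itself stood at 1.86 FPKM in KO, 4.47 FPKM in Het and 5.51 FPKM in wild-type cells at day 5. At day 3 it stood at 15.5 FPKM in KO, 7.73 FPKM in Het and 18.3 FPKM in wild-type cells. It was called lower than wild type in KO at day 5 (log2 change -1.56, SE 0.69) and in Het at day 3 (-1.25, SE 0.58), and a message level does not measure the protein. Of 10 neural crest markers, 9 in KO, 9 in Het and 6 in wild-type cells reached 1 FPKM at day 5. Their summed level was then 246 FPKM in KO, 98.8 FPKM in Het and 46.9 FPKM in wild-type cells. At day 3 the sum was 83.0 FPKM in KO, 62.3 FPKM in Het and 13.5 FPKM in wild-type cells, with 9 of the 10 at 1 FPKM in KO, 7 in Het and 4 in wild type. The defining markers SOX10 and FOXD3 stood at 0.388 and 0.198 FPKM in the day 5 wild-type cells that are labelled neural crest. Others of the 10 were higher in those cells, with 23.2 FPKM for SNAI2, 9.35 FPKM for PAX3 and 6.45 FPKM for ETS1. SNAI2 did not follow the order of the sums, with 28.5 FPKM in KO and 19.5 FPKM in Het at day 5. At day 3 it stood at 5.07 FPKM in KO, 9.85 FPKM in Het and 6.35 FPKM in wild-type cells. The 9 central neural progenitor markers summed to 62.6 FPKM in KO, 128 FPKM in Het and 178 FPKM in wild-type cells at day 5, and to 93.7 FPKM in KO, 118 FPKM in Het and 219 FPKM in wild-type cells at day 3, when 5, 6 and 6 reached 1 FPKM in KO, Het and wild type. Most of the progenitor sum was SOX2, with 58.0 FPKM in KO, 102 FPKM in Het and 139.6 FPKM in wild-type cells at day 5, and LHX5 of that list ran the other way at day 3, with 11.3 FPKM in KO, 6.37 FPKM in Het and 1.83 FPKM in wild-type cells. The 6 primitive streak and mesendoderm markers summed to 17.5 FPKM in KO at day 3 and to 0.625 to 3.57 FPKM in the other 5 groups, where SOX17 was listed at 0 in Het and wild type at day 5 and in wild type at day 3. The 6 pluripotency markers summed to 284 FPKM in KO, 291 FPKM in Het and 356 FPKM in wild-type cells at day 5 and to 779.7 FPKM in KO, 526 FPKM in Het and 577 FPKM in wild-type cells at day 3, mostly LIN28A. The 6 endothelial markers summed to 12.2 FPKM in KO, 19.9 FPKM in Het and 18.8 FPKM in wild-type cells at day 5 and to 43.4 FPKM in KO, 32.3 FPKM in Het and 25.8 FPKM in wild-type cells at day 3, when KDR alone stood at 13.1 FPKM in KO, 3.45 FPKM in Het and 0.971 FPKM in wild-type cells. Most of the endothelial sum was TEK, with 29.3 FPKM in KO, 27.7 FPKM in Het and 23.8 FPKM in wild-type cells at day 3. PECAM1, CDH5, ERG and TIE1 were below 1 FPKM in every group. The 7 neuron markers summed to 71.4 FPKM in KO, 86.9 FPKM in Het and 99.0 FPKM in wild-type cells at day 5 and to 134 FPKM in KO, 104 FPKM in Het and 173 FPKM in wild-type cells at day 3, when STMN2 of that list stood at 32.0 FPKM in KO, 5.79 FPKM in Het and 5.14 FPKM in wild-type cells. Most of the neuron sum was TUBB3. The 8 placode and surface ectoderm markers summed to 106 FPKM in KO, 126 FPKM in Het and 122 FPKM in wild-type cells at day 5 and to 120.5 FPKM in KO, 79.0 FPKM in Het and 92.8 FPKM in wild-type cells at day 3, mostly KRT8 and KRT18. Marker levels thus moved with genotype and day, and their part in the changes of guidance genes was not tested.

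The guidance genes called higher than wild type at day 3 in KO and also in Het were SEMA3A, SEMA3C, SEMA3F, EPHA7, SLIT2, ROBO3 and UNC5C. Both comparisons share 1 wild-type group, so being called in both serves here only to choose sequences and is no result. The promoter table used, from RefSeq on GRCh38.p14, holds 6 of them, and all 6 are printed because forkhead factors bind cores of the kind marked. Each window runs from 250 bases before the transcript start to 50 after it, on the strand of the gene, at the first start listed for that gene. Capitals mark a match, on either strand, to the forkhead core TGTTTAC or to either of its close variants. One variant searched was TGTTTGC. The other variant was TATTTAC, and no pair of the 3 can match at the same bases.
EPHA7, chr6:93419510-93419809, minus strand: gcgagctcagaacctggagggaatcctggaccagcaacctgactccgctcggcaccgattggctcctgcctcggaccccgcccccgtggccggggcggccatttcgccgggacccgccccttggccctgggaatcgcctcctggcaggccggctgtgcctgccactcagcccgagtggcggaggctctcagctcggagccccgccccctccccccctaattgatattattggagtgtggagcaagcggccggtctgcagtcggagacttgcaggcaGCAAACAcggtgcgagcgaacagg
SEMA3C, chr7:80922340-80922639, minus strand: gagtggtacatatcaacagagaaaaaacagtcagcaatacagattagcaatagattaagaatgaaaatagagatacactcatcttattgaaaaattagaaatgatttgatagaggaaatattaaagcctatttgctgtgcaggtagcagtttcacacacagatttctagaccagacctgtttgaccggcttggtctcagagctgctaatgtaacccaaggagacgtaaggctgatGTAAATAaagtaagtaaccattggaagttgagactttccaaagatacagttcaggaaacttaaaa
UNC5C, chr4:95548924-95549223, minus strand: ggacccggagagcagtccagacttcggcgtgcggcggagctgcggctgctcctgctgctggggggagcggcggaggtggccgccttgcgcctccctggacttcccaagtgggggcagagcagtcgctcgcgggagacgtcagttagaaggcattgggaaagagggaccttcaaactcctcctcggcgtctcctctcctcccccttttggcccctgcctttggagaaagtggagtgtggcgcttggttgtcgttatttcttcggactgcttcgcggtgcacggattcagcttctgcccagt
SLIT2, chr4:20251655-20251954, plus strand: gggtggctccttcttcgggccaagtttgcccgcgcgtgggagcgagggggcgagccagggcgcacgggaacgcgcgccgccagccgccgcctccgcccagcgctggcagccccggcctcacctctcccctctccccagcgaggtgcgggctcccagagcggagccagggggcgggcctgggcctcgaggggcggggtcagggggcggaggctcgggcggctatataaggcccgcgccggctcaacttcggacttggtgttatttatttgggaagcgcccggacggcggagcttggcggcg
SEMA3F, chr3:50154808-50155107, plus strand: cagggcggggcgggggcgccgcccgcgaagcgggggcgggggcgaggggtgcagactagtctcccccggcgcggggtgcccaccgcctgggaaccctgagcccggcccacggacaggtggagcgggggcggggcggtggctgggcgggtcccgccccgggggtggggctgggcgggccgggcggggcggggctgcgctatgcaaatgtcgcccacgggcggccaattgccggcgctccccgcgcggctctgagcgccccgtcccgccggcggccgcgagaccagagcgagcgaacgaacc
ROBO3, chr11:124875932-124876231, plus strand: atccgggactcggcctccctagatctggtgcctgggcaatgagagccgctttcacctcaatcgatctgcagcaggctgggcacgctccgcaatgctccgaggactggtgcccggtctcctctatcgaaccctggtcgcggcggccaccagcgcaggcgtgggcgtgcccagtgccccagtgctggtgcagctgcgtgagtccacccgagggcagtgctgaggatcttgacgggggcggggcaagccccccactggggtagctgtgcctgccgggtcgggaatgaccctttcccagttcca

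The EPHA7 window held a TGTTTGC match on the opposite strand that began at base 277, and the SEMA3C window a TATTTAC match on the opposite strand that began at base 236. The UNC5C, SLIT2, SEMA3F and ROBO3 windows held none of the 3 cores. Of all 35116 RefSeq promoter windows, 9.57% held at least 1 of these cores. Among the 91 windows of the 59 guidance genes with a window, 6 did, those of EPHA7, SEMA3C, SEMA3E, SEMA4B and SEMA5B. The windows differed in base composition, with 81.3% G and C for SEMA3F and 36.0% for SEMA3C, beside a median of 58.7% over all windows. A match describes these letters only and does not show binding.

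**Figure D1:**
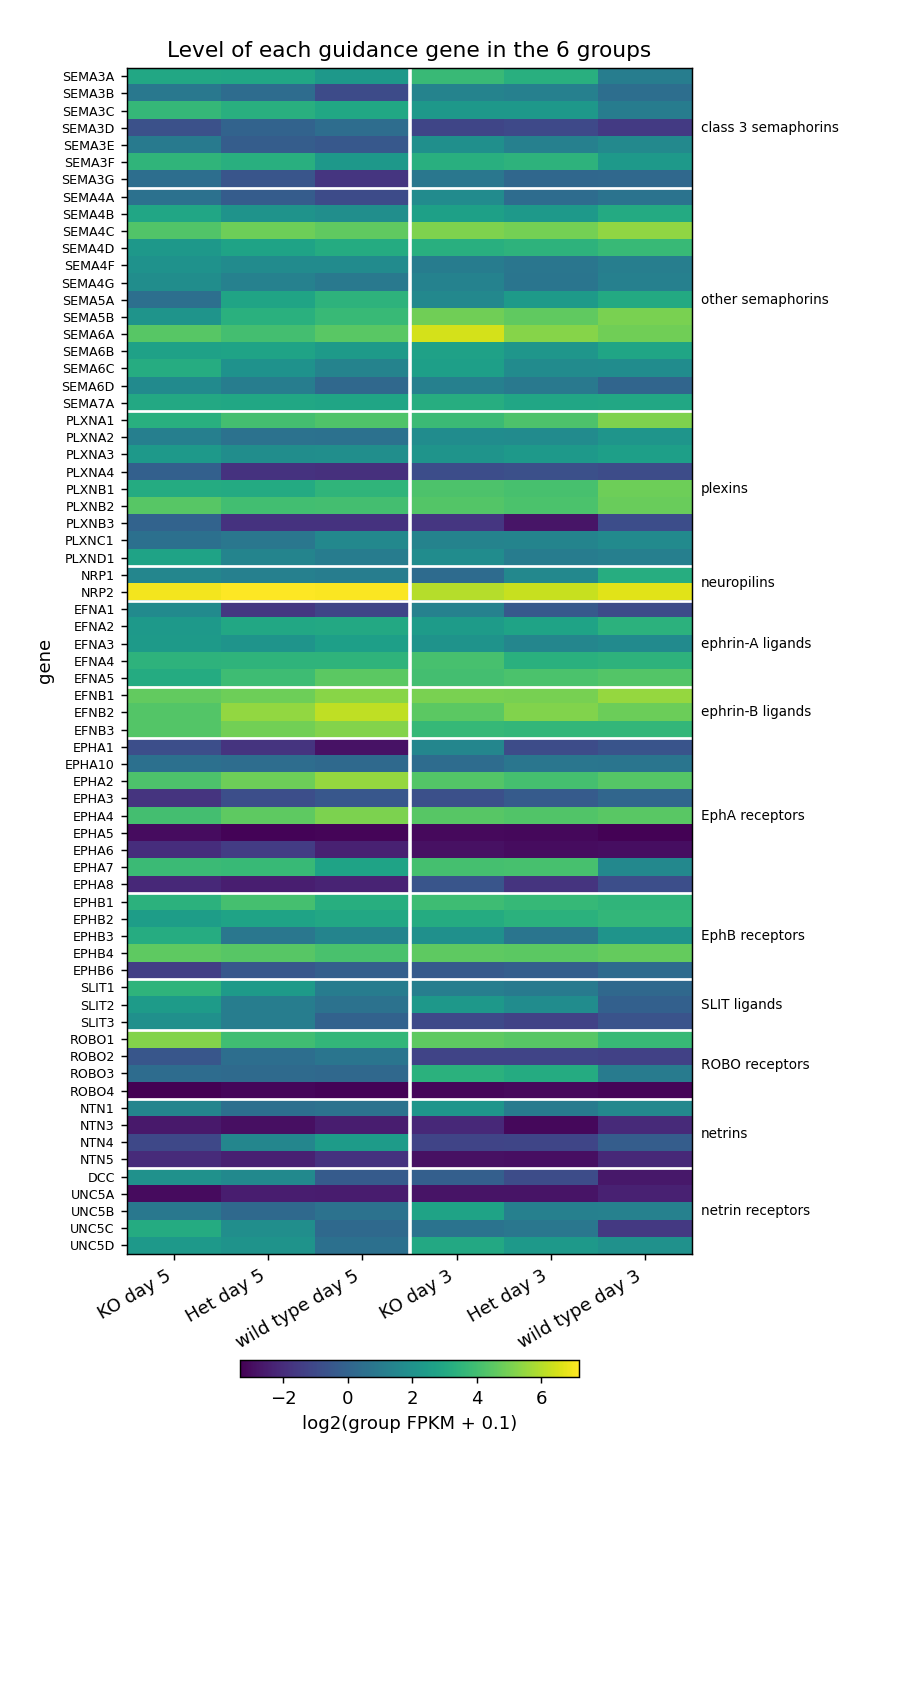
Colour gives log2 of the group FPKM plus 0.1 for each of the 69 guidance genes (rows, grouped by family) in KO, Het and wild-type cells at day 5 and day 3 (columns). NRP2 and SEMA6A are among the brightest rows, and EPHA5, ROBO4 and UNC5A among the darkest.

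Most of the guidance system was expressed. Of the 69 genes, 44 reached 1 FPKM in all 6 groups, 59 in at least 1 group and 10 in none. The highest mean over the 6 groups, 108 FPKM, and the highest level in every group except KO at day 3, where SEMA6A stood at 90.7 FPKM, was that of the semaphorin co-receptor NRP2, with 124 FPKM in KO, 143 FPKM in Het and 137 FPKM in wild-type cells at day 5, and with 63.2 FPKM in KO, 77.4 FPKM in Het and 104 FPKM in wild-type cells at day 3. Among ligands, the highest mean over the 6 groups was 36.8 FPKM for EFNB2, a transmembrane ephrin, and 36.4 FPKM for SEMA6A, a transmembrane semaphorin that binds A-type plexins. The highest means of the other receptor families were 25.2 FPKM for EPHA2, 22.6 FPKM for the EFNB2 receptor EPHB4, 20.5 FPKM for ROBO1 and 19.9 FPKM for PLXNB2, and the highest of the GPI-anchored ephrins was 16.9 FPKM for EFNA5. Secreted cues were lower, with family maxima of 8.57 FPKM for SEMA3F, 3.89 FPKM for SLIT1 and 2.43 FPKM for NTN1, and among netrin receptors UNC5D led with 4.51 FPKM. The genes below 1 FPKM everywhere included EPHA5, EPHA6, EPHA8, NTN3, NTN5, UNC5A and ROBO4, an endothelial ROBO receptor, and these 7 were not tested in any of the 9 comparisons used. Of the other 62, 52 were tested in all 9 comparisons, 10 in some, 48 were called in at least 1 and 14 in none at the deposited q-value.

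Day 3 KO cells carried more RNA of 3 class 3 semaphorins, of SLIT2 and of all 4 netrin receptors tested than wild type, and less of both neuropilins. Of 57 guidance genes tested, 14 were called higher and 5 lower in the authors' deposited table, where 4.34% and 5.17% of the 14678 genes tested were called in those directions. As shares of the guidance genes tested these counts are 24.6% and 8.77%. The median log2 change of the 69 genes (log2 of FPKM plus 0.1) was 0.03, beside -0.02 over all genes tested. In bulk RNA, fewer cells of a type and less RNA per cell cannot be told apart.

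Among ligands at day 3, SEMA3A, a secreted semaphorin that collapses growth cones through NRP1, stood at 13.5 FPKM in KO, 9.61 FPKM in Het and 2.104 FPKM in wild-type cells. Both edited lines lay above wild type, 6.41-fold in KO (log2 change 2.68, SE 0.47) and 4.57-fold in Het (2.19, SE 0.48), with q = 0.00126 for each in the authors' deposited table, the smallest q that table holds. SLIT2, a repellent for ROBO-bearing cells, stood at 4.70 FPKM in KO, 3.30 FPKM in Het and 0.816 FPKM in wild-type cells. It was called higher in KO (2.53, SE 0.58) and in Het (2.02, SE 0.60), each with q = 0.00126 in the authors' deposited table. Smaller rises in both lines were those of SEMA3C, a secreted semaphorin with 4.71 FPKM in KO, 4.77 FPKM in Het and 1.99 FPKM in wild-type cells, and of SEMA3F, an NRP2 ligand with 9.65 FPKM in KO, 10.8 FPKM in Het and 5.04 FPKM in wild-type cells. The log2 changes were 1.25 (SE 0.51) in KO and 1.27 (SE 0.53) in Het for SEMA3C, and 0.94 (SE 0.53) in KO and 1.11 (SE 0.52) in Het for SEMA3F.

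Membrane-bound ligands went both ways in KO at day 3. SEMA6A stood at 90.7 FPKM in KO, 38.2 FPKM in Het and 29.2 FPKM in wild-type cells. It was higher in KO than in wild type (log2 change 1.63, SE 0.41) and than in Het (1.25, SE 0.41), while Het against wild type was not called (0.39, SE 0.41). EFNA1, a GPI-anchored ephrin, stood at 2.34 FPKM in KO, 0.666 FPKM in Het and 0.433 FPKM in wild-type cells. It was called higher in KO than in wild type (2.43, SE 0.82) and than in Het (1.81, SE 0.75). EFNA1 lies on the long arm of chromosome 1, where the 576 expressed genes had a median log2 change of 0.60 in KO against wild type and 585 had 0.57 in KO against Het at day 3, and the EFNA1 changes were larger. SEMA5A, a transmembrane semaphorin with thrombospondin repeats, ran the other way with 2.85 FPKM in KO, 5.19 FPKM in Het and 8.15 FPKM in wild-type cells. It fell in KO by 1.51 on the log2 scale (SE 0.45, q = 0.00126 in the authors' deposited table), and Het against wild type was not called (-0.65, SE 0.44). EFNA2 was called lower in KO with 5.28 FPKM in KO, 6.66 FPKM in Het and 10.5 FPKM in wild-type cells (-0.99, SE 0.55), and the 3 B-type ephrins were not called in either line at day 3.

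Among receptors at day 3, EPHA7, an Eph receptor of the A class at chr6:93949740-94129300 in hg19, stood at 16.9 FPKM in KO, 17.4 FPKM in Het and 2.86 FPKM in wild-type cells. KO and Het lay close together and both above wild type, 5.90-fold in KO (2.56, SE 0.46) and 6.08-fold in Het (2.60, SE 0.46). ROBO3, a divergent ROBO receptor needed for axons to cross the midline, stood at 10.3 FPKM in KO, 8.70 FPKM in Het and 1.98 FPKM in wild-type cells. It was called higher in KO (2.38, SE 0.52) and in Het (2.14, SE 0.54). UNC5C, a repulsive netrin receptor, stood at 1.495 FPKM in KO, 1.71 FPKM in Het and 0.236 FPKM in wild-type cells. Its log2 change was 2.67 (SE 0.68) in KO and 2.86 (SE 0.69) in Het, from a wild-type level below 1 FPKM. All 4 netrin receptors tested in KO at day 3 were called higher. The others were DCC, the attractive receptor, at 0.806 FPKM in KO, 0.437 FPKM in Het and 0.0615 FPKM in wild-type cells, UNC5B at 6.64 FPKM in KO, 2.25 FPKM in Het and 2.32 FPKM in wild-type cells and UNC5D at 7.84 FPKM in KO, 5.06 FPKM in Het and 3.85 FPKM in wild-type cells. Against wild type, their log2 changes in KO were 3.71 (SE 0.76), 1.52 (SE 0.50) and 1.03 (SE 0.47), and in Het DCC was not tested while UNC5B and UNC5D were not called. The netrin ligands NTN1 and NTN4 were not called against wild type at day 3.

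Of the semaphorin receptors tested at day 3, both neuropilins and PLXNA1 of 7 plexins were called lower in KO. NRP1, the partner of SEMA3A in binding plexins, stood at 1.17 FPKM in KO, 2.84 FPKM in Het and 9.26 FPKM in wild-type cells. It was called lower in KO (-2.99, SE 0.63) and in Het (-1.70, SE 0.57), with q = 0.00126 for each in the authors' deposited table. KO and Het did not differ from each other in a call at day 3 (-1.28, SE 0.68, for KO against Het). PLXNA1, a signalling partner of the neuropilins, stood at 14.2 FPKM in KO, 18.9 FPKM in Het and 35.5 FPKM in wild-type cells and was called lower in KO (-1.32, SE 0.41) and in Het (-0.91, SE 0.40). NRP2 was called lower in KO (-0.71, SE 0.42), and PLXNB1, the SEMA4D receptor, was called lower in Het with 18.6 FPKM in KO, 17.4 FPKM in Het and 28.7 FPKM in wild-type cells (-0.72, SE 0.41). EPHB3, an Eph receptor of the B class, stood at 3.72 FPKM in KO, 1.56 FPKM in Het and 4.15 FPKM in wild-type cells. It was called lower in Het than in wild type (-1.41, SE 0.58) and higher in KO than in Het (1.25, SE 0.59).

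In Het at day 3, 7 of 56 guidance genes tested were called higher and 4 lower, beside 1.68% and 4.63% of the 14618 genes tested in the authors' deposited table. These counts are 12.5% and 7.14% of the guidance genes tested, and the median log2 change was -0.22, beside -0.04 over all genes tested. With p-values adjusted within each comparison, EFNA2, NRP2 and SEMA3F were not called in KO, nor PLXNB1 in Het. Changes at day 3 fell with the GC content of transcripts, with a Spearman correlation across expressed genes, which are not independent replicates, of -0.45 in KO and -0.58 in Het. With each gene centred on genes of like GC content, 18 guidance genes were called higher and 3 lower in KO, a share of 85.7% higher instead of 73.7%. NTN1, PLXND1, SEMA3B, SEMA4A and SEMA6C were gained and EFNA2, NRP2 and ROBO1 lost. In Het, 8 were then called higher and 1 lower, 88.9% higher instead of 63.6%, with SEMA3B gained and EPHB3, PLXNA1 and PLXNB1 lost. This centring also needs the test to be remade from the log2 change and its SE, which without any centring gave 77.8% higher in KO and 70.0% in Het and already lost NRP2 in KO and PLXNB1 in Het.

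**Figure D2:**
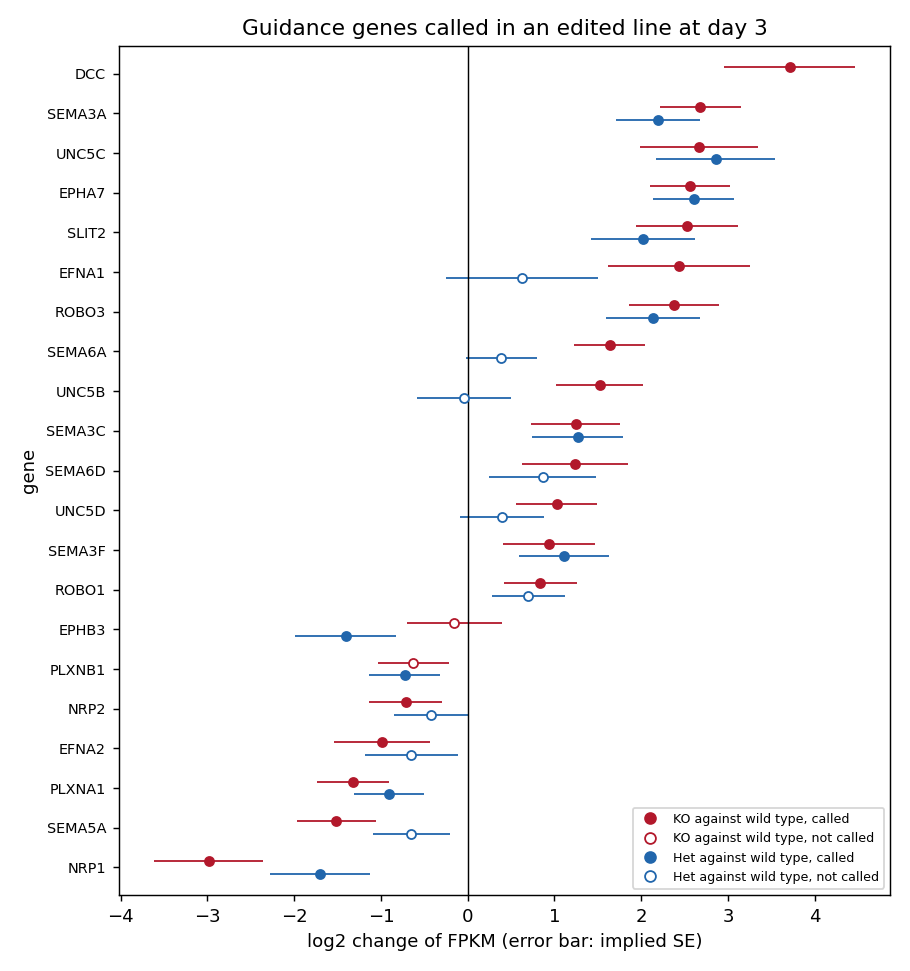
Points give the log2 change against wild type at day 3 for KO (red) and Het (blue) of each guidance gene (rows) called in at least 1 of the lines, filled where called, with error bars of 1 implied SE. A point is missing where the gene was not tested. SEMA3A, EPHA7, SLIT2, ROBO3 and UNC5C have both points above 2 on the log2 scale, and NRP1 has both below -1.7.

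At day 5 the guidance genes of KO cells differed from wild type in both directions, with more RNA of 3 of 4 netrin receptors tested, 2 of 3 SLIT ligands and EFNA1, and less of NTN4, 2 of 3 B-type ephrins and both class 5 semaphorins. Of 60 guidance genes tested, 20 were called higher and 12 lower in the authors' deposited table, beside 7.58% and 5.68% of the 14936 genes tested. The higher calls are 33.3% of the guidance genes tested. The median log2 change was 0.27, beside 0.03 over all genes tested. In Het, 6 of 57 were called higher and 0 lower by the deposited Cuffdiff test, with 5 lower at an unadjusted p below 0.05, beside 1.14% higher and 1.02% lower of the 14561 genes tested. The median in Het was 0.05, beside -0.03. With p-values adjusted within the comparison, Het had 3 calls, those of DCC, UNC5C and UNC5D, and not those of EPHA7, SEMA3F and SEMA3G. Changes rose with GC content at day 5, with a Spearman correlation across genes of 0.15 in KO and 0.42 in Het. Within GC bins 23 guidance genes were called higher and 13 lower in KO. The call of SEMA3D was lost and those of PLXNC1, SEMA3A, SEMA3C, SEMA4D and SLIT1 were gained. In Het 4 calls were left within GC bins, without SEMA3F and SEMA3G. The remade test without centring already gained SLIT1 in KO and lost SEMA3F and SEMA3G in Het.

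Of 2 netrins tested at day 5, 1 was called lower in KO than in wild type, and 3 of 4 netrin receptors tested were called higher. NTN1 was not called against wild type, in KO (0.82, SE 0.62) or in Het (-0.14, SE 0.60). The netrin NTN4, a ligand related to laminins, stood at 0.387 FPKM in KO, 2.71 FPKM in Het and 5.29 FPKM in wild-type cells. It was 13.7-fold lower in KO than in wild type (-3.77, SE 0.69, q = 0.00126 in the authors' deposited table) and lower than in Het (-2.81, SE 0.76), while Het against wild type was not called (-0.97, SE 0.62). NTN4 lies on chromosome 12, where the median log2 change of 680 expressed genes was -0.50 in KO against wild type and of 682 was -0.19 in KO against Het at day 5, and the NTN4 changes were larger. UNC5C stood at 8.53 FPKM in KO, 3.48 FPKM in Het and 1.09 FPKM in wild-type cells, highest in KO and lowest in wild type. Each pair of groups was called different, with 2.97 (SE 0.54) for KO against wild type, 1.29 (SE 0.48) for KO against Het and 1.67 (SE 0.57) for Het against wild type. DCC stood at 3.80 FPKM in KO, 3.01 FPKM in Het and 0.709 FPKM in wild-type cells, and UNC5D at 4.89 FPKM in KO, 4.09 FPKM in Het and 1.34 FPKM in wild-type cells. Both lines exceeded wild type for DCC (2.42, SE 0.57, in KO and 2.09, SE 0.59, in Het) and for UNC5D (1.87, SE 0.57, in KO and 1.61, SE 0.58, in Het), and neither gene was called between KO and Het.

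SLIT ligands and their receptors did not all move one way. SLIT2 stood at 5.25 FPKM in KO, 2.09 FPKM in Het and 1.45 FPKM in wild-type cells, called higher in KO than in wild type (1.86, SE 0.59) and than in Het (1.33, SE 0.56). SLIT3 stood at 3.79 FPKM in KO, 2.11 FPKM in Het and 0.890 FPKM in wild-type cells and was called higher in KO than in wild type (2.09, SE 0.65). SLIT1 had 11.2 FPKM in KO, 5.13 FPKM in Het and 2.02 FPKM in wild-type cells, and its log2 change in KO of 2.47 (SE 1.15) missed the threshold with q = 0.0763 in the authors' deposited table, although it was called when the test was remade from the log2 change and its SE. SLIT1 shares its locus in that table with ARHGAP19, at a mean of 20.5 FPKM, and with a readthrough transcript of both genes, so its value is uncertain. ROBO1, a main receptor for SLIT ligands, stood at 37.1 FPKM in KO, 15.3 FPKM in Het and 12.1 FPKM in wild-type cells, the highest level in KO, and was called there against wild type (1.61, SE 0.43) and against Het (1.28, SE 0.42). ROBO2, its relative, was low with 0.591 FPKM in KO, 1.27 FPKM in Het and 1.56 FPKM in wild-type cells and fell in KO by 1.40 on the log2 scale (SE 0.59).

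Of the ephrins tested in KO at day 5, 1 of 5 A-type ones was called higher and 1 lower, and 2 of 3 B-type ones lower. Of the Eph receptors, 1 of 4 in the A class was called higher and 2 lower, and 1 of 5 in the B class higher and 1 lower. EFNB2, a ligand of EPHB4 and a cue at the borders of crest streams in frog embryos, stood at 20.5 FPKM in KO, 43.5 FPKM in Het and 70.3 FPKM in wild-type cells. It was called lower in KO than in wild type (-1.78, SE 0.43) and than in Het (-1.09, SE 0.44), and Het against wild type was not called (-0.69, SE 0.42). Also called lower in KO than in wild type were EFNA5 with 8.73 FPKM in KO, 14.97 FPKM in Het and 22.6 FPKM in wild-type cells (-1.37, SE 0.45), EFNB3 (-0.87, SE 0.46), EPHA2 (-1.31, SE 0.42) and EPHA4 (-1.04, SE 0.43). EPHB6, an Eph receptor without kinase activity, was called lower too (-1.49, SE 0.78). It was below 1 FPKM in all 3 groups, with 0.283 FPKM in KO, 0.619 FPKM in Het and 0.797 FPKM in wild-type cells. EFNA1 stood at 3.13 FPKM in KO, 0.227 FPKM in Het and 0.351 FPKM in wild-type cells, 8.91-fold higher in KO than in wild type (3.16, SE 0.83) and 13.8-fold higher than in Het (3.79, SE 1.04). The median of its chromosome region at day 5 was 0.37 in KO against wild type and 0.45 in KO against Het. EPHB3 stood at 8.90 FPKM in KO, 1.66 FPKM in Het and 2.52 FPKM in wild-type cells and was called higher in KO than in wild type (1.82, SE 0.53) and than in Het (2.42, SE 0.54). EPHA7 stood at 14.2 FPKM in KO, 13.2 FPKM in Het and 6.76 FPKM in wild-type cells, called higher in KO (1.07, SE 0.44) and in Het (0.97, SE 0.44).

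Of 13 semaphorins outside class 3 tested in KO at day 5, 4 were called higher and 2 lower. The transmembrane SEMA5A stood at 1.31 FPKM in KO, 6.83 FPKM in Het and 10.8 FPKM in wild-type cells, and was called lower in KO than in wild type (-3.05, SE 0.49) and than in Het (-2.39, SE 0.54). SEMA5B, its closest relative, stood at 4.22 FPKM in KO, 10.1 FPKM in Het and 13.3 FPKM in wild-type cells and was called lower in the same comparisons (-1.65, SE 0.52, and -1.25, SE 0.50). Of the 7 class 3 semaphorins tested, SEMA3B, SEMA3E, SEMA3F and SEMA3G were called higher and SEMA3D lower in KO. SEMA3G, an NRP2 ligand, stood at 1.28 FPKM in KO, 0.573 FPKM in Het and 0.208 FPKM in wild-type cells, called in KO (2.62, SE 0.71) and in Het (1.46, SE 0.80), where both groups were below 1 FPKM. SEMA3B had 1.72 FPKM in KO, 1.21 FPKM in Het and 0.421 FPKM in wild-type cells, with a log2 change of 2.03 (SE 0.77) in KO. SEMA3E, which binds PLXND1 without a neuropilin, had 1.88 FPKM in KO, 0.747 FPKM in Het and 0.631 FPKM in wild-type cells and was called higher in KO than in wild type (1.57, SE 0.63) and than in Het (1.33, SE 0.61). Its receptor PLXND1 stood at 6.58 FPKM in KO, 2.58 FPKM in Het and 1.99 FPKM in wild-type cells and was called higher in KO in both comparisons too (1.72, SE 0.50, and 1.35, SE 0.54). Neither neuropilin was called at day 5, with 2.69 FPKM in KO, 2.30 FPKM in Het and 2.096 FPKM in wild-type cells for NRP1.

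**Figure D3:**
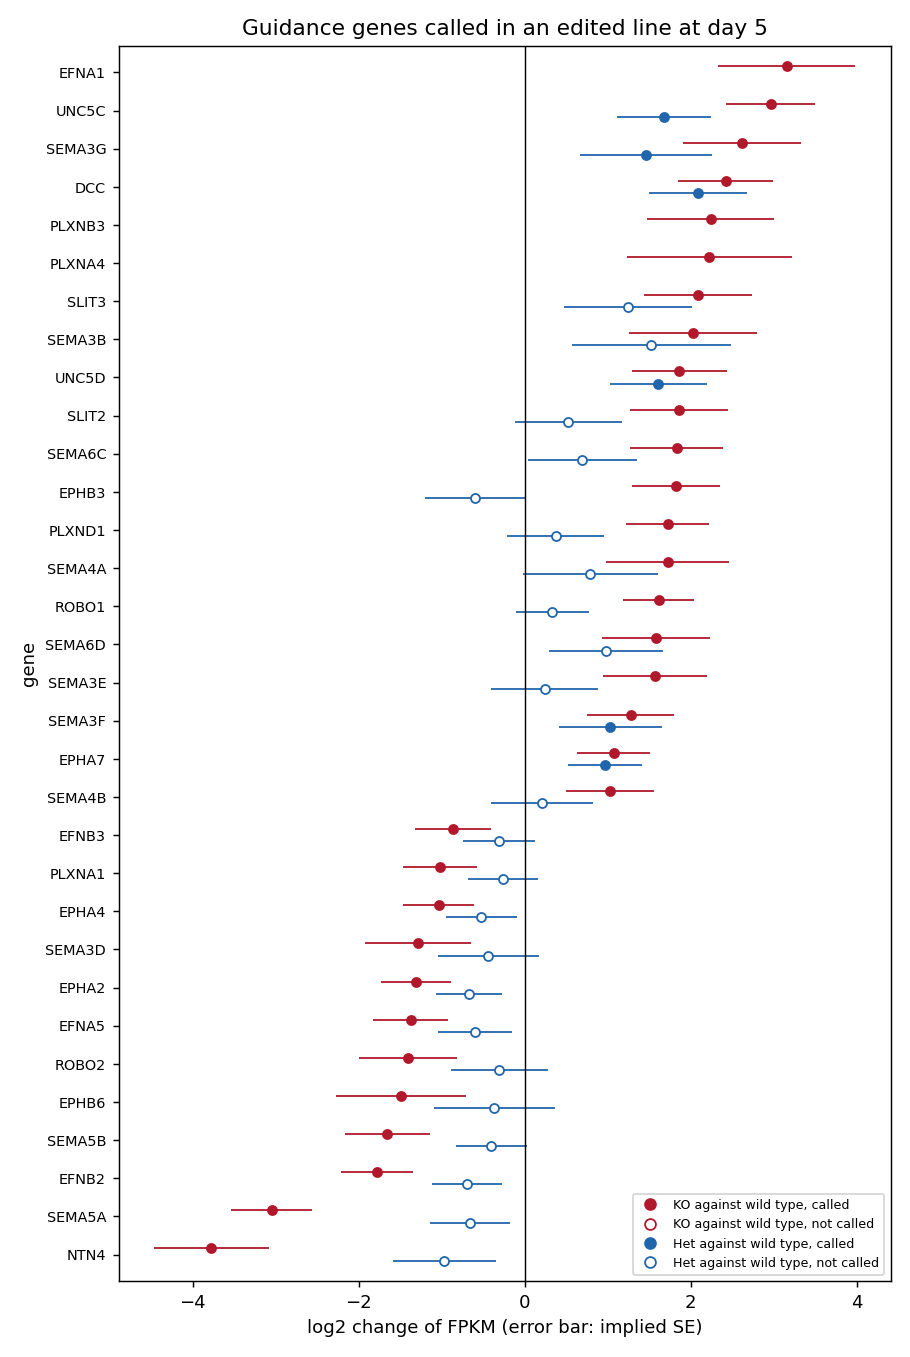
Points give the log2 change against wild type at day 5 for KO (red) and Het (blue) of each guidance gene (rows) called in at least 1 of the lines, filled where called, with error bars of 1 implied SE. A point is missing where the gene was not tested. EFNA1 and UNC5C lead the rises of KO, NTN4 and SEMA5A lead its falls, and no Het point left of 0 is filled.

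KO and Het were also set against each other, which tests whether the edited lines differ. At day 3, 6 of 56 guidance genes tested were called higher and 0 lower in KO than in Het, beside 2.3% and 0.54% of the 14624 genes tested in the authors' deposited table. At an unadjusted p below 0.05 the Cuffdiff test had 3 lower. Besides EFNA1, EPHB3 and SEMA6A these were UNC5B, NTN1 and SEMA4A. UNC5B stood at 6.64 FPKM in KO and 2.25 FPKM in Het (1.56, SE 0.50), and NTN1, the best-studied netrin, at 4.35 FPKM in KO and 1.94 FPKM in Het (1.17, SE 0.55). SEMA4A, a transmembrane semaphorin on the same arm of chromosome 1 as EFNA1, stood at 3.21 FPKM in KO and 1.22 FPKM in Het (1.39, SE 0.62). With p-values adjusted within this comparison alone, the calls of EFNA1, EPHB3, NTN1 and SEMA4A were lost, which leaves 2. At day 5, 9 of 60 were called higher and 4 lower, beside 5.55% and 2.51% of the 15000 genes tested. The 4 lower genes were NTN4, SEMA5A, SEMA5B and EFNB2, and the 9 higher ones EFNA1, EPHB3, UNC5C, SLIT2, SEMA3E, PLXND1, ROBO1, PLXNA4 and PLXNB3, of which the last 2 stayed below 1 FPKM in both lines. The call of PLXNA4 was lost with p-values adjusted within the comparison. The median log2 change of the 69 genes for KO against Het was 0.14 at day 3, beside 0.01 over all genes tested, and 0.22 at day 5, beside 0.05.

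**Figure D4:**
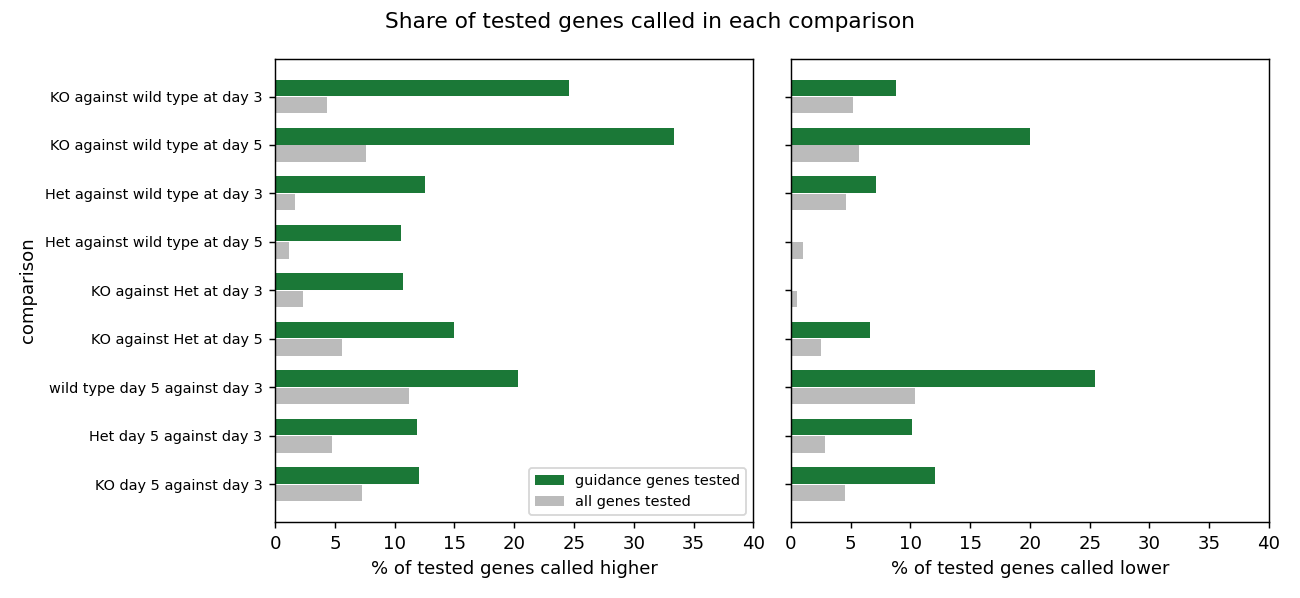
Bars give the percentage of tested guidance genes (green) and of all tested genes (grey) called higher (left) and lower (right) in each of the 9 comparisons (rows) at q below 0.05. KO against wild type at day 5 has the longest bar for higher calls, 33.3% beside 7.58%, and day 5 against day 3 in wild type the longest for lower calls, 25.4% beside 10.4%.

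Between the days, wild-type cells changed in both directions, with rises of NTN4, ROBO2, EFNB2 and EFNB3 and falls of 5 plexins. Of 59 guidance genes tested, 12 were called higher and 15 lower at day 5, beside 11.2% and 10.4% of the 14680 genes tested in the authors' deposited table. Those counts are 20.3% and 25.4% of the guidance genes tested, and the median log2 change was -0.29, beside 0.01. NTN4 stood at 5.29 FPKM at day 5 and 0.760 FPKM at day 3 (2.80, SE 0.64), and ROBO2 at 1.56 FPKM at day 5 and 0.308 FPKM at day 3 (2.34, SE 0.63). SEMA3D, UNC5C and SEMA3C also rose, with log2 changes of 2.37 (SE 0.67), 2.21 (SE 0.71) and 1.92 (SE 0.53). EFNB3, a transmembrane ephrin, stood at 37.5 FPKM at day 5 and 12.3 FPKM at day 3 (1.61, SE 0.45). The falls were led by SEMA3G (-2.36, SE 0.72), SEMA3E (-2.23, SE 0.58), NRP1 (-2.14, SE 0.60), SEMA4A (-1.83, SE 0.76), PLXNA2 (-1.60, SE 0.50) and SEMA3B (-1.59, SE 0.71). Of 7 plexins tested, 5 were called lower, namely PLXNA1, PLXNA2, PLXNA3, PLXNB1 and PLXNB2. This comparison had a Spearman correlation with GC content of -0.50 across genes. Centred on genes of like GC content, 11 guidance genes were called higher and 9 lower, 55.0% higher instead of 44.4%, and the calls of NTN1, PLXNA1, PLXNA3, PLXNB2, SEMA3A, SEMA3B and SEMA4C were lost. The remade test without centring lost none of them, with 41.9% higher.

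In Het, 7 of 59 guidance genes tested were called higher at day 5 and 6 lower, beside 4.74% and 2.83% of the 14795 genes tested in the authors' deposited table. The rises were led by NTN4, with 2.71 FPKM at day 5 and 0.352 FPKM at day 3 (2.95, SE 0.74), DCC (2.79, SE 0.59) and SLIT3, with 2.11 FPKM at day 5 and 0.323 FPKM at day 3 (2.71, SE 0.79). ROBO2 (1.86, SE 0.66), EFNB3 (1.33, SE 0.45), NRP2 (0.89, SE 0.43) and SEMA3C (1.04, SE 0.47) rose as well. ROBO3 fell to 1.15 FPKM at day 5, against 8.70 FPKM at day 3 (-2.92, SE 0.70), and SEMA3E (-1.61, SE 0.59), SEMA5B (-1.25, SE 0.42), SEMA6A (-1.22, SE 0.41), PLXNA2 (-1.14, SE 0.50) and PLXNB1 (-1.03, SE 0.44) fell too. The median log2 change in Het was -0.13, beside 0.05 over all genes tested. The calls of NRP2 and SEMA3C in Het were lost with p-values adjusted within the comparison.

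In KO, 7 of 58 guidance genes tested were called higher at day 5 and 7 lower, beside 7.29% and 4.53% of the 14995 genes tested in the authors' deposited table. SLIT3 stood at 3.79 FPKM at day 5 and 0.395 FPKM at day 3 (3.26, SE 0.70), and UNC5C at 8.53 FPKM at day 5 and 1.495 FPKM at day 3 (2.51, SE 0.50). DCC (2.24, SE 0.53), SEMA3C (1.42, SE 0.45), EPHB3 (1.26, SE 0.51), NRP2 (0.98, SE 0.44) and PLXNB3 (2.11, SE 0.70) also rose. ROBO3 fell to 1.22 FPKM at day 5, against 10.3 FPKM at day 3 (-3.08, SE 0.57). SEMA5B stood at 4.22 FPKM at day 5 and 29.5 FPKM at day 3 (-2.81, SE 0.50), and SEMA6A at 21.4 FPKM at day 5 and 90.7 FPKM at day 3 (-2.08, SE 0.41). UNC5B (-1.93, SE 0.51), SEMA5A (-1.13, SE 0.52), PLXNB1 (-1.11, SE 0.47) and SEMA4D (-1.02, SE 0.50) fell too. The median log2 change in KO was -0.15, beside 0.08. Centring every gene on the median of expressed genes gave 7 higher and 11 lower calls, a share of 38.9% higher where the deposited calls split evenly. The same remade test without centring gave 8 higher and 9 lower calls, 47.1% higher.

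Whether the change between days differed between an edited line and wild type was tested as the difference of the log2 changes over its SE, with a normal p and Benjamini-Hochberg adjustment over all genes. With the SE that the deposited scores imply, 0 of 55 guidance genes differed in KO and 0 of 58 in Het, with 13 and 3 at an unadjusted p below 0.05. Over all genes, 0.205% of 14143 had a positive called difference and 0.113% a negative one in KO, and 0.0702% and 0.0421% of 14250 in Het. The deposited p-values are smaller than a normal reading of these scores gives, and with the SE scaled to them (by 0.628 in KO and 0.626 in Het), 13 guidance genes differed in KO and 3 in Het. On that scale the shares over all genes were 3.13% positive and 2.25% negative in KO, and 0.912% positive and 0.442% negative in Het. These differences were not centred on GC content. Across genes the day change had a Spearman correlation with GC content of -0.50 in wild type, -0.02 in KO and 0.09 in Het. Within GC bins the wild-type rise of SEMA3A was not called. The part of GC content in the differences was not tested. The 13 in KO were 5 with a positive difference, NRP1, SLIT3, EPHB3, SEMA3G and SEMA4B, and 8 with a negative one, ROBO3, SEMA3A, SEMA6A, SEMA5A, EFNB2, SEMA5B, EPHA7 and EPHA2. The largest difference was that of NRP1, at 3.35 on the log2 scale, with a scaled SE of 0.58. With its implied SE of 0.92, the adjusted p of the normal test was 0.0723. NRP1 stood at 2.69 FPKM at day 5 and 1.17 FPKM at day 3 in KO, and at 2.096 FPKM at day 5 and 9.26 FPKM at day 3 in wild type. With scaled SEs, SEMA3A differed by -1.96 (SE 0.42) in KO and -1.55 (SE 0.42) in Het, EPHA7 by -1.49 (SE 0.40) in KO and -1.64 (SE 0.40) in Het, and ROBO3 by -2.20 (SE 0.53) in KO and -2.04 (SE 0.59) in Het, and these 3 made up the Het calls.

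**Figure D5:**
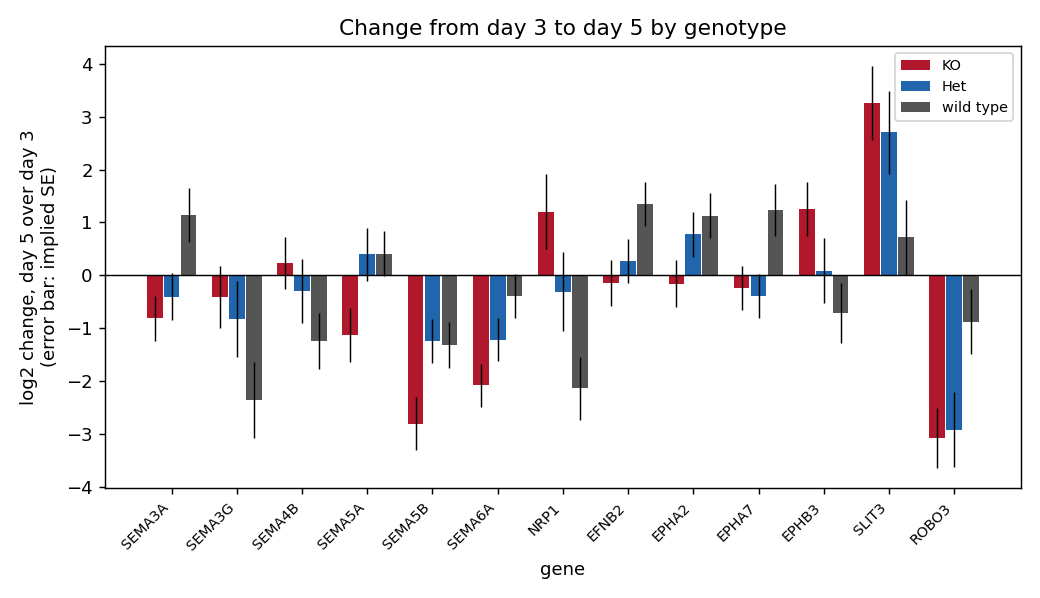
Bars give the log2 change of day 5 over day 3 in KO (red), Het (blue) and wild type (grey) for the 13 guidance genes (horizontal axis) whose change differed between KO and wild type with scaled SE, with error bars of 1 implied SE. The NRP1 bar points up in KO (1.21) and down in wild type (-2.14), and the SEMA3A and EPHA7 bars point up in wild type and down in both edited lines. The changes are not centred on GC content.

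Other genes of guidance signalling formed a list of 52 that held intracellular and co-receptor genes and also ligands and receptors outside the symbol rule. The 50 of them in the table were counted in the same way. In KO against wild type, 5 were called higher and 6 lower of 45 tested at day 3, beside 4.34% and 5.17% of all genes tested in the authors' deposited table, and 5 higher and 4 lower of 47 at day 5, beside 7.58% and 5.68%. As shares of the list these are 11.1% and 13.3% at day 3, and 10.6% and 8.51% at day 5, and the day 5 shares are near those of all genes. In Het against wild type the counts were 2 higher and 5 lower of 45 at day 3, beside 1.68% and 4.63% of all genes, and 0 higher and 2 lower of 42 at day 5, beside 1.14% and 1.02%, with 1 higher at an unadjusted p below 0.05 in the Cuffdiff test. In KO against Het they were 2 higher and 1 lower of 44 at day 3, beside 2.3% and 0.54%, and 5 higher and 2 lower of 46 at day 5, beside 5.55% and 2.51%. RGMA, a ligand of the DCC relative NEO1, was called lower than wild type in KO (-1.82, SE 0.43, at day 3 and -2.35, SE 0.47, at day 5) and in Het (-1.66, SE 0.42, at day 3 and -0.90, SE 0.42, at day 5). FLRT3, a membrane protein that binds UNC5 receptors and ROBO1, was called higher than wild type in KO (1.36, SE 0.50, at day 3 and 1.13, SE 0.48, at day 5) and in Het at day 3 (1.55, SE 0.50). CXCR4, the receptor for the guidance chemokine CXCL12, was called higher at day 3 in KO (1.35, SE 0.52) and in Het (1.39, SE 0.52). Between the days, 6 of these genes were called higher and 10 lower of 46 tested in wild type, beside 11.2% and 10.4% of all genes, and 3 higher and 6 lower of 47 in KO, beside 7.29% and 4.53%. In Het, 1 was called higher and 0 lower of 41, beside 4.74% and 2.83%, with 7 lower at an unadjusted p below 0.05 in the Cuffdiff test. The collapsin response mediators DPYSL3, DPYSL4, DPYSL5 and CRMP1, which act below semaphorin receptors, were among the 10 lower in wild type. DPYSL3 (-1.12, SE 0.41) and DPYSL5 (-0.99, SE 0.40) were called lower at day 5 in KO as well. The calls of this list were not centred on GC content.

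In the 9 comparisons used, 14 guidance genes were tested but not called at the deposited q-value. They were SEMA4F, SEMA4G, SEMA6B, SEMA7A, PLXNC1, EFNA4, EFNB1, EPHA1, EPHA3, EPHA10, EPHB1, EPHB2, EPHB4 and SLIT1. Under other settings SLIT1 and PLXNC1 were called in KO at day 5 and EPHB2 in the wild-type time course. Some were abundant, with EFNB1 between 24.7 and 45.7 FPKM and EPHB4 between 17.9 and 25.9 FPKM over the 6 groups. In the deposited data, 11 guidance genes share their locus with another gene, among them EFNA4 with ADAM15, SEMA4G with MRPL43 and SLIT1 with ARHGAP19. They also include SLIT2 with MIR218-1, at a mean of 3.41 FPKM, and UNC5B with LOC728978, at 0.166 FPKM. EPHA1, at a mean of 0.743 FPKM, shares its locus with ZYX, at 28.9 FPKM. Its log2 change between the days in wild type had an SE of 6.63, so that it was not called says little. For SEMA5A, SLIT3 and EPHB2 the other genes were microRNAs listed at 0 FPKM. Whether counting used strand is not given in the sources used here, so the values of genes that share a locus are less certain.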

How the data were processed

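RNA was measured by sequencing in 16 samples of WA01 cells, 2 replicates for each of 4 lines at each of 2 days. Reads were aligned to hg19 with TopHat2 2.1.1 and quantified and tested with Cuffdiff 2.2.1, per the submitters' processing notes. Annotation, filters and library normalization are not given in sources used here. The authors deposited 1 FPKM value per gene and group, with replicates combined, for 6 groups in 15 pairwise comparisons. Per the file headers, the deposited table also holds the log2 fold change, the Cuffdiff test score, and the p-value and q-value. Recomputing a Benjamini-Hochberg adjustment over all 222234 tests gave the deposited q-value to within 5.28e-07. No counts or library depths were at hand, so a test over libraries could not be fitted. HOMO, a group name of that file, was taken to mean the KO line, and the single wild-type group took the place of both wild-type lines, which could not be separated.

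Guidance genes were taken by symbol and spans by the deposited hg19 loci, which can merge overlapping genes. A gene was called at q below 0.05. The SE of a log2 change is the deposited log2 fold change over the test score. Day changes were compared between genotypes with these SEs, and as an alternative with SEs scaled to the deposited p-values. The test was also run on simulated day changes of KO and wild type, with noise drawn from the scaled SE. That simulation therefore cannot tell which SE fits these data. GC content came from GENCODE 29 transcripts for 96.1% to 96.4% of expressed genes. Promoters came from RefSeq (GRCh38.p14), and their coordinates were not combined with the hg19 loci. Python 3.11.15 was used with pandas 2.3.3, numpy 2.4.6, scipy 1.17.1 and matplotlib 3.10.9.

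For each comparison, up to 6 called genes with the largest rise and up to 6 with the largest fall among those with at least 1 FPKM in a group were named, plus genes whose day change differed, the highest gene of each family and FOXB1. Genes named outside this rule were chosen after their values were seen. The members and lists were chosen with earlier results of these data known. Alternatives were a q of 0.01, at least a 2-fold change, at least 1 FPKM in a group, adjustment within the comparison, centring on the median of expressed genes or within 20 bins of GC content, and pseudocounts of 1 and 0.01 FPKM in place of 0.1.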

Additional observations from a re-analysis of the deposited data

How the results depend on the processing

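No called gene or median changed its direction under any alternative tried. The number of guidance genes called stayed within 1.5 times its value for KO and Het against wild type at day 3, KO against wild type at day 5, and the time courses of wild type and Het. At q below 0.01, Het against wild type at day 5 had 3 calls instead of 6, KO against Het 2 instead of 6 at day 3 and 7 instead of 13 at day 5, and the KO time course 8 instead of 14. With adjustment within the comparison, Het against wild type at day 5 had 3 and KO against Het at day 3 had 2. KO against Het at day 3 had 3 when centred on the median, within GC bins, or with the test remade without centring, an alternative chosen after seeing the data, so centring itself changed no count there. Scaled SEs moved the genes whose day change differed to 13 in KO and 3 in Het, instead of 0 in each. For the other counts in this paragraph, the cause was not tested.

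Of 90 calls of named genes, 21 were lost at q below 0.01, 10 with adjustment within the comparison, 10 within GC bins, 6 with centring on the median, 6 with the remade test and 6 with the 2-fold minimum. The medians of GC bins ran from -0.81 to 0.28 in the comparisons of edited lines with wild type. No paired analysis was possible because the deposited table holds 1 value per gene and group, and for the same reason no replicate could be left out. Depth is unknown, so no floor for genes near 0 can be given.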
